A study of Mus musculus with 9 samples.

Results

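In the chromatin of tumor-specific CD8 T cells, 619 regions were called open in all 3 peak lists of day 21 after cell transfer and in none of the lists of days 4 and 8. They are 0.983% of the 62963 union regions, which were made by merging the peaks of all 9 lists on chromosomes 1 to 19 and X wherever peaks shared at least 1 base. The members were chosen by the presence or absence of a peak in each of the 9 lists, so their absence from the lists of days 4 and 8 is the rule and not a result. The reverse pattern, a call in all 3 day 8 lists and in no other, was held by 678 regions, 1.08% of the union, and 3 regions were called on day 4 only.

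The cells were P14 cells, whose transgenic receptor recognises the GP33-41 peptide of the lymphocytic choriomeningitis virus (LCMV) presented by H-2Db, and which came from P14 mice with a TCF-1-GFP reporter. Recipient mice, labelled C57L/B6 (B6) in one field and C57BL/6 in another, carried subcutaneous B16.F10 melanoma cells made to express the LCMV glycoprotein, and received 500000 naive CD44-GFP+ cells 8 days after the tumor. At 4, 8 or 21 days after that transfer, CD45.1+CD44+CD8 T cells were sorted from the tumor-draining lymph nodes, and 50000 cells per library went into ATAC-seq, which inserts sequencing adapters into open DNA with the Tn5 transposase. Each day has 3 libraries, and all groups share the tumor, the donor genotype and the recipient strain; no untransferred or tumor-free group was compared here. The days were taken from the titles, because the genotype tag holds the day and the time point tag the genotype. The age of the mice is not in the labels used here, nor do they say whether separate animals gave the libraries of 1 day.

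ATAC-seq peaks mark places where nucleosomes give way, mostly at promoters and at enhancers, the stretches of DNA that bind transcription factors and act on genes at a distance. Promoters of active genes tend to be open in many states of a cell, while enhancers vary more with its state. CD8 T cells that meet tumor antigen in a draining lymph node can keep memory-like features under the factor TCF-1, while prolonged antigen induces inhibitory receptors such as PD-1. In a bulk library, a weaker peak may stand for fewer cells with an open site or for a less open site in each cell, and these cannot be told apart.

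Few of the members lie at gene starts. Start windows ran from 250 bases before to 50 bases after a RefSeq gene start. Of 594 members on chromosomes whose windows were used, 9 (1.52%) shared a base with one. Among regions called on day 8 only, 40 of 670 did so (5.97%). The share was 7.47% (876 of 11720) for regions called in all day 21 and day 8 lists but no day 4 list. For regions called in all 9 lists it was 49.1%. The member covered at least 50% of the window in 5 of the 9 cases, and these 5 windows are shown because they are the promoter sequences that lie mostly inside a region called on day 21 only. Foxa3 and Adgrg5 are among them because of that overlap, which was seen before they were chosen. Sequences are RefSeq's for GRCm38.p6, the assembly of mm10, 5′ to 3′ on the gene's own strand, and capitals mark a match to 1 of 8 short transcription factor motifs that were searched on both strands.
Cdkn2a, chr4:89282143-89282442, minus strand: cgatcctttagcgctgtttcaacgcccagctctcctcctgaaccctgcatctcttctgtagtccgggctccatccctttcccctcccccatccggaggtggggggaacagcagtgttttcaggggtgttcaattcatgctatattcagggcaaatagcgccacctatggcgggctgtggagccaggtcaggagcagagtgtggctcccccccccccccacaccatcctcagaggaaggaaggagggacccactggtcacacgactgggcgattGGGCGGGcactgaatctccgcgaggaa
Gm41876, chr19:58455899-58456198, plus strand: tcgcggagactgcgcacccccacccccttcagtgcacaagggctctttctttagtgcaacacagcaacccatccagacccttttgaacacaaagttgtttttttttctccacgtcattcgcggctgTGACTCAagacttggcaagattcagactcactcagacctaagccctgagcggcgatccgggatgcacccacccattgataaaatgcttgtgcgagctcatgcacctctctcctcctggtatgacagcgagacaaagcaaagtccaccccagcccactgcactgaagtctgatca
Nrxn3, chr12:89812233-89812532, plus strand: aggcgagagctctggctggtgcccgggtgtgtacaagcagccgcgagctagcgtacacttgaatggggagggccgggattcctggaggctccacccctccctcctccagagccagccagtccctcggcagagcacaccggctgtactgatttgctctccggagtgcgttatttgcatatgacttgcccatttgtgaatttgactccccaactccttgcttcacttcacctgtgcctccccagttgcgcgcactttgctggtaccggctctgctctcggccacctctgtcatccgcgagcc
Foxa3, chr7:19023490-19023789, minus strand: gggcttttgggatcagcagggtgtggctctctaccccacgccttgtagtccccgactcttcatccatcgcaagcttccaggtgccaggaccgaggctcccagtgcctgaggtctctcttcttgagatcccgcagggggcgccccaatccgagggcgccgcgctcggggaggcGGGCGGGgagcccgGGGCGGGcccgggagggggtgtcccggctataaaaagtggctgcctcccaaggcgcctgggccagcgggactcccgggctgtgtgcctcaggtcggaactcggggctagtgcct
Adgrg5, chr8:94923444-94923743, plus strand: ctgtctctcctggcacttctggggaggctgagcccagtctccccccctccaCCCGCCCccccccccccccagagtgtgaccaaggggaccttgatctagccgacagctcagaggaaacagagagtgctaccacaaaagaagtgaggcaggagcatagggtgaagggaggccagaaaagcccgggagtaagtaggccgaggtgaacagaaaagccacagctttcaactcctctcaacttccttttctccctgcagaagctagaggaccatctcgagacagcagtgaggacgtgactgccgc

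Cdkn2a encodes a pair of cell cycle inhibitors read from separate starts, and the window printed is 1 of 2 listed for the gene. The member there, chr4:89282030-89282433, contained 291 of the 300 bases and lay 7.56 kb inside the gene. It had a summit pileup, the number of reads or fragments stacked at the highest point of the peak, of 16, 14 and 21 in day 21 lists 1, 2 and 3. Nrxn3 encodes a neurexin, an adhesion protein of synapses, and its window, an inner start that is 1 of 3 listed for the gene, lay wholly inside the member chr12:89812160-89812672, which had pileups of 12, 14 and 25. The third list was thus the highest at both genes, most clearly at Nrxn3. At Gm41876, a predicted gene, the member held 181 bases of the window and had a pileup of 20 in each list. Foxa3, a forkhead factor of the liver, had 265 bases in a member with pileups of 25, 27 and 21. Adgrg5, an adhesion G protein-coupled receptor, had 259 bases in a member with pileups of 27, 20 and 36. The other 4 windows were touched over 26 to 96 bases, at Gm34699, Hunk, Spag16 and Gm32269.

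The GC-box motif of SP and KLF factors, GGGCGGG or its reverse complement CCCGCCC, stood in 4 of the 9 windows (44.4%, against 25.7% of all 32619 windows of this length). The AP-1 motif TGANTCA stood in 1 window (11.1%, against 7.85%), that of Gm41876, and the TCF/LEF motif CTTTGAT in 1 (11.1%, against 3.76%), that of Gm34699. No window held the letters CCGGAAG of ETS factors, TGTGGTT of RUNX factors, GGTGTGA of T-box factors, TGACGTC of CREB and ATF factors or TGGAAAA of NFAT factors, which stood in 8.92%, 5.29%, 3.98%, 3.23% and 6.77% of all windows. No window held more than 1 kind of motif, so matches of different motifs did not overlap. The median GC content was 59% in the 9 windows, against 53% in all windows and 62.3% in windows touched by regions called in all 9 lists. With 9 windows these shares describe these promoters and no more.

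The hairpin of the microRNA Mir423, at chr11:77078064-77078172 on the minus strand, had 108 of its 109 bases inside a member, chr11:77077842-77078171 in Nsrp1, which had pileups of 20, 18 and 20. Another member, chr11:43376070-43376407, lay 1.61 kb from the hairpin of Mir146, the source of miR-146a, which restrains NF-κB signalling in T cells, and had pileups of 15, 19 and 21. These are 2 of the 3 members within 5 kb of a RefSeq hairpin, the last being 1.12 kb from Mir3109, and 6 regions called on day 8 only lay as near. These miRNAs were chosen after their distances were seen. Mature sequences are shown for the hairpin inside a member and for the miRNA with a known role in T cells, with the seed, bases 2 to 8, in capitals.
mmu-miR-423-3p: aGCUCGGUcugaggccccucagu
mmu-miR-423-5p: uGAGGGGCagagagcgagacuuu
mmu-miR-146a-5p: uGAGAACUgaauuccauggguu
The 3 seeds differ from one another. Peaks say nothing of whether these RNAs were made.

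The lists themselves limit what a call means. A day 4 list held 19499 to 22250 peaks, a day 8 list 47513 to 50835 and a day 21 list 46492 to 51671. The lists give no read totals, and the smallest local background behind a list's peaks, which scales with its reads, ran from 2.62 to 3.38 in day 4 lists, from 2.14 to 2.63 in day 8 lists and from 2.33 to 3.08 in day 21 lists, with list 3 the highest of these. For the 15109 regions with a peak in each of the 9 lists, the chi-square between the summit pileups of 2 lists, divided by the number of regions, was 0.417 to 0.444 for the 9 pairs of the same day and 0.965 to 1.19 for the 27 pairs of different days. Counting noise alone would give about 1, so at these regions lists of 1 day differed by less than that. Pairs of different days lay near that value or somewhat above it, with 0.965 to 1.04 for day 8 with day 21. Over the members, the 3 pairs of day 21 lists had 0.364 to 0.385. Members had to be called in each of those lists, so their low values follow in part from the rule and add no support. Because of the values at regions called in every list, the lists of a day were counted as 1 sample. A call in 3 of 3 lists is therefore no independent replication, and no result below carries a p-value. All 7 T cell marker genes had a called region in every list. Regions were also called at 9 to 10 of 12 B cell, 11 to 14 of 16 myeloid and dendritic, 7 to 8 of 12 stromal and endothelial, and 4 of 9 melanocyte genes in day 21 lists. In the same order, day 8 lists had 9 to 10, 11 to 12, 7 to 8 and 4 to 5. The shorter day 4 lists had 2 to 4, 7 to 8, 2 to 3 and 2 to 3. The melanocyte genes Sox10, Tyr, Tyrp1 and Slc45a2 had no call in any list, nor did Ms4a1, Fcer2a, Lyz2, Col3a1 and Lyve1.

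**Figure D1:**
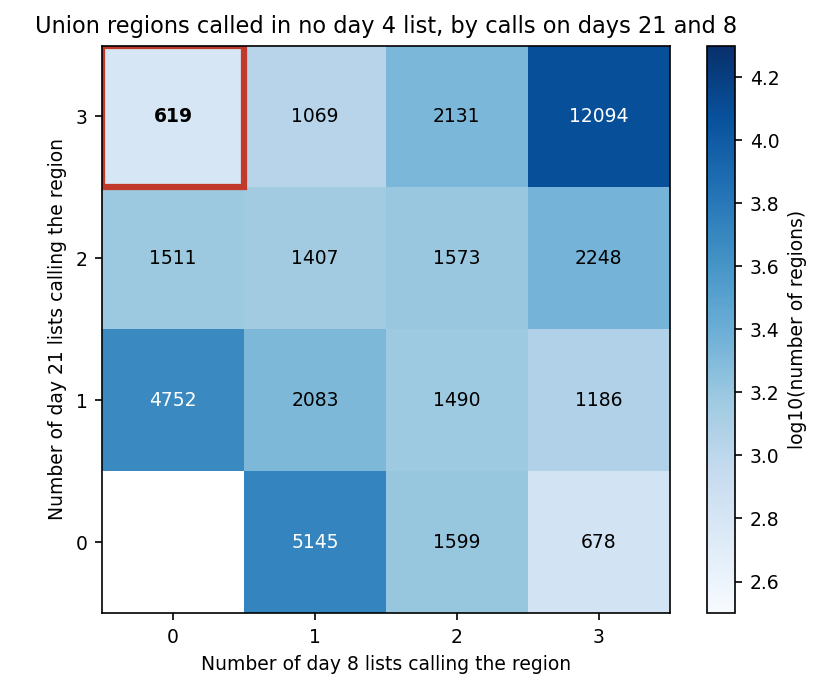
Number of union regions called in no day 4 list, by how many of the 3 day 21 lists (vertical axis) and of the 3 day 8 lists (horizontal axis) called them, with the colour on a log10 scale. The 619 regions called on day 21 only are framed at the upper left, beside 1069 regions with 1 day 8 call and 12094 with 3.

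The members were mostly weak peaks. Their median summit pileup was 17, 17 and 21 in day 21 lists 1, 2 and 3, within a range of 10 to 170, and their median fold enrichment over the local background, as the authors' peak caller gave it, was 4.39, 4.29 and 4.17. Ranked by p-value within a list, with 100 for the strongest peak, the median member stood at percentile 17.2, 17.6 and 23.0. Regions called in all day 21 and day 8 lists but no day 4 list stood at 38.9, 38.2 and 44.9, and regions called in all 9 lists at 83.7, 83.4 and 85.1. Only 9, 5 and 19 of the 619 members were above the median peak of their list. Regions called on day 8 only were placed alike in their own lists, at 17.9, 18.1 and 21.6, with median pileups of 16, 17 and 18. Single peaks of members were narrow, with median widths of 260, 255 and 280 bases against 414, 413 and 422 for all peaks, and the merged member regions were 204 to 806 bases wide, with a median of 346.

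**Figure D2:**
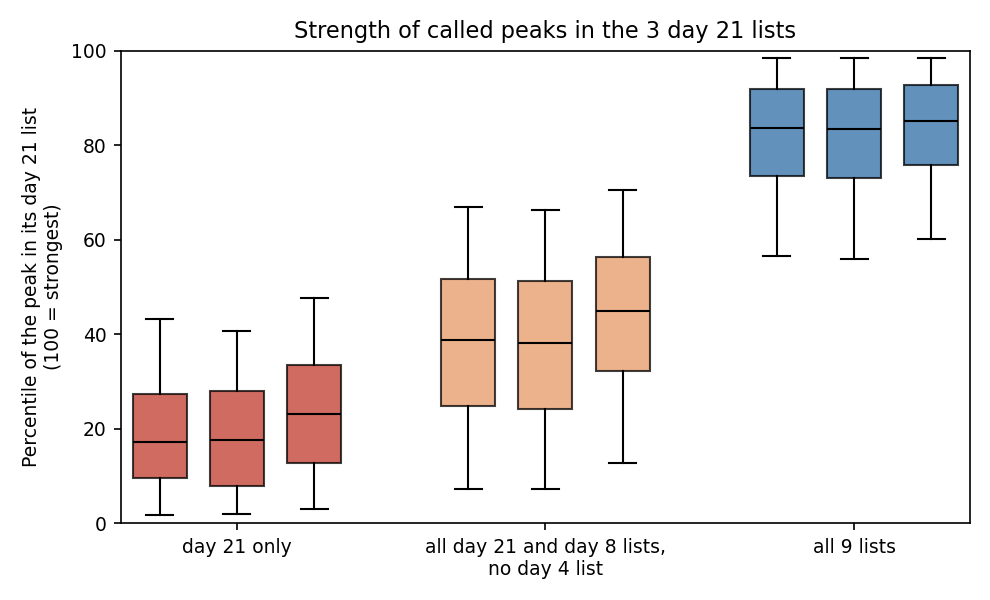
Percentile of the called peaks within each of the 3 day 21 lists (100 is the strongest peak of a list), for regions called on day 21 only, regions called in all day 21 and day 8 lists but no day 4 list, and regions called in all 9 lists. Boxes span the quartiles with the median as a line, whiskers run from the 5th to the 95th percentile of the regions, and each box is 1 list; the medians of the first set lie at 17.2, 17.6 and 23.0.

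The edge of the rule is a matter of 1 call. The median −log10 q over the members' day 21 peaks was 6.14, and the lowest was 1.84, near Rbm44. Weakest after it were members at Celf5 (1.99), Nfkb1 (2.09), Utp15 (2.14) and Jade2 (2.19), each named by its lowest list. Just outside the rule were 1069 regions with a call in each day 21 list and in 1 day 8 list, with a median −log10 q of 6.81 on day 21 and 5.49 in that day 8 list. A further 18 had 1 day 4 call in place of a day 8 call. Another 1511 regions were called in 2 day 21 lists and nowhere else (median 5.27), and 4752 in a single day 21 list (4.55). Without day 21 list 2, day 21 list 1 or day 8 list 3 the rule gave 1316, 1230 and 1115 regions, and among the 19499 strongest peaks of each list, the length of the shortest, 0 of the 619 had the pattern. The members thus lie among a much larger number of regions with a similar strength and a similar pattern of calls.

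A missing call does not show a closed site, so each member's pileup was set against what a call would have needed on another day. The day 21 pileup was scaled by the ratio of the lists' smallest backgrounds and divided by the smallest pileup that the other list accepted at the scaled local background. Against day 8 lists the median of this ratio was 1.59, from 1.11 to 2.63. It reached 1.5 for 402 members (64.9%) and 2 for 49 (7.92%). Against day 4 lists the median was 1.62. The scaling uses the background alone and takes signal over background to be equal in both lists, which was not tested. Day 4 lists held only 19499 to 22250 peaks at smallest backgrounds of 2.62 to 3.38. For a list with less signal over background the ratio comes out too high, so the day 4 value shows no margin. Regions called on day 8 only had a median of 1.68 against day 21 lists, with 539 of 678 (79.5%) at 1.5 or more and 103 (15.2%) at 2 or more. Since the members had passed much the same limit in the day 21 lists, a ratio above 1 follows from the rule, and the ratios are a description only. Peaks must also reach a minimum width, which this ratio leaves out.

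The strongest members, ranked by the lowest −log10 q of the 3 lists, lay away from gene ends: of the top 20, 11 were inside genes, 9 were between genes and 0 were within 1 kb of a gene end. First was chr11:3163708-3163988 in Sfi1, which encodes a centrosomal protein, with pileups of 146, 143 and 170. Its local background was also high, at 67.6, 67.0 and 80.8, so its fold enrichment was 2.14, 2.12 and 2.09, among the lowest of the members. The member chr17:3079353-3079602, 35.4 kb from Scaf8, was of the same kind, with pileups of 99, 93 and 107 and fold enrichments of 2.54, 2.44 and 2.40. Nothing used here states how reads matching more than one place were handled, so the counts at both places are uncertain.

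The member in Hecw2, a ubiquitin ligase gene, at chr1:53856684-53857217, had pileups of 25, 32 and 27 and fold enrichments of 6.44, 9.22 and 6.33. Its scaled pileup was 2.47 times what a day 8 call would have needed. The highest such ratio of all members, 2.63, belonged to chr1:95674110-95674460, 6.39 kb outside St8sia4, which encodes an enzyme that adds polysialic acid to surface proteins, with pileups of 22, 21 and 31. In Qrfprl, a receptor-like gene, the member chr6:65453514-65453816 had pileups of 22, 27 and 27 and a ratio of 2.42. Zfp40, a zinc-finger gene, had one 6.62 kb away with pileups of 24, 20 and 25. At Mfsd14b, a transporter-like membrane protein gene, the pileups were 21, 20 and 27. By pileup, day 21 list 3 was the highest, or tied for it, at 4 of these 5 members, and list 2 at Hecw2. By fold enrichment, which allows for the local background, list 3 led only at St8sia4 (7.85) and Mfsd14b (6.87). List 2 led at Hecw2 and Qrfprl (8.40), and list 1 at Zfp40 (7.38).

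Most further members of the top 20 were at genes of various kinds. Tnik, a kinase gene of the Wnt pathway, had pileups of 33, 32 and 36 at chr3:28405520-28405796 in the gene. Me2, the gene of a mitochondrial malic enzyme, had 44, 40 and 46 at a place 1.49 kb outside it. Abcd3, a peroxisomal fatty acid transporter gene, had 21, 25 and 23, and Atp10a, the gene of a phospholipid flippase, had 32, 31 and 32. Rab28, a small GTPase gene, had 19, 20 and 25, Tent5a, a poly(A) polymerase gene, had 19, 20 and 34 at a place 37.9 kb away, and Ghitm, a gene of the inner mitochondrial membrane, had 19, 19 and 30 at 29.96 kb. Otogl, Vmn2r26 and Prss12, genes of the inner ear, of pheromone sensing and of a neuronal protease, had 22, 19 and 22, then 20, 19 and 21, then 23, 24 and 24. Among the 20, 2 had no protein-coding gene within 100 kb, at chr16:70006879-70007398 and chr18:82009302-82009643, with the nearest gene 143.1 and 382.9 kb away.

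Compared with other open regions, the members lay far from gene ends. Within 1 kb of either end of a protein-coding gene were 39 members (6.30%, Wilson 95% interval 4.64 to 8.50%), against 102 of the regions called on day 8 only (15.04%, 12.6 to 17.9%), 12.7% of those called in all day 21 and day 8 lists but no day 4 list, 53.0% of those called in all 9 lists and 22.4% of the union. The intervals cover counting error only and treat regions as independent, which neighbouring regions are not. Inside genes, but over 1 kb from an end, were 320 members (51.7%) against 314 day 8 only regions (46.3%), and between genes 260 (42.0%) against 262 (38.6%). More than 100 kb from any gene were 55 members (8.89%, 6.89 to 11.4%) against 26 day 8 only regions (3.83%, 2.63 to 5.56%). The median distance to a gene end was 20.9 kb for members, 11.6 kb for day 8 only regions, 13.9 kb for regions called on both later days, 0.43 kb for regions called in all 9 lists and 10.5 kb over the union. The difference in place between the regions of day 21 only and of day 8 only is a description of 1 sample per day, with no replicate check.

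**Figure D3:**
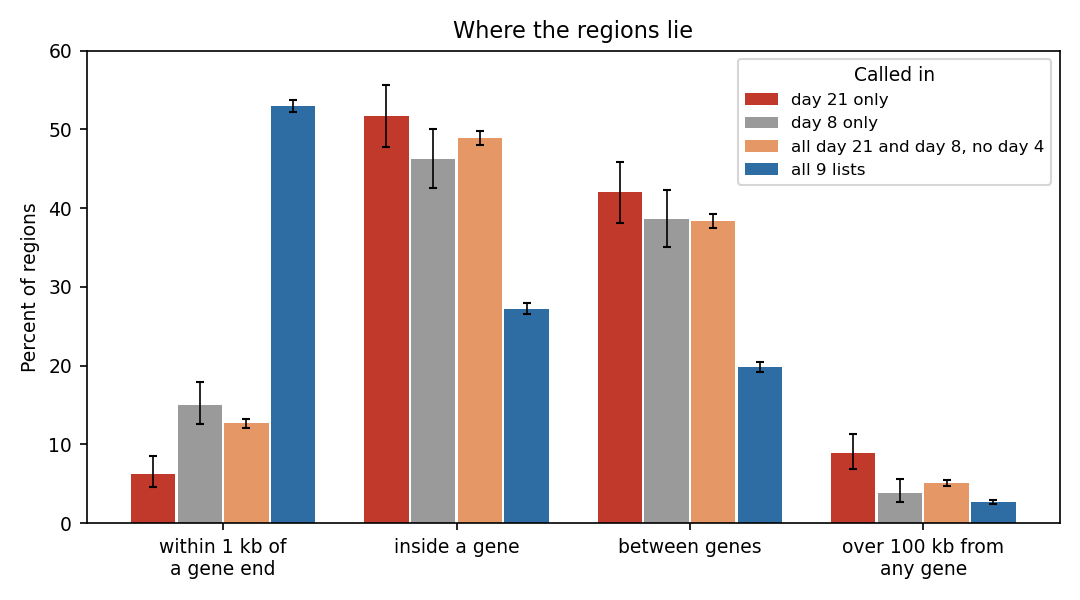
Percent of regions (vertical axis) within 1 kb of a gene end, inside a gene, between genes and, as a subset of the last, over 100 kb from any gene, for 4 sets of regions by the lists that called them. Error bars are Wilson 95% intervals of the counts, and the bar of day 21 only regions near gene ends stands at 6.30%, against 15.04% for day 8 only.

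Signal at regions that were open on every day had a tilt of the same kind, which is given beside the places of the members. Among the 15109 regions with a call in every list, the median pileup of those near gene ends relative to that of all was 1.16 on day 4, 1.14 on day 8 and 1.09 on day 21. Inside genes it was 0.875, 0.893 and 0.925, and between genes 0.811, 0.837 and 0.880. Over 100 kb from any gene, where 413 of these regions lay, it was 0.811, 0.781 and 0.886. Each of the 3 day 21 lists was lower near gene ends and higher elsewhere than each of the 3 day 8 lists, at 1.08 to 1.10 against 1.13 to 1.15 near gene ends and at 0.873 to 0.893 against 0.833 to 0.843 between genes. The part of this tilt, at peaks that are no members, in the placement of the members was not tested.

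Members lay only slightly nearer to other open regions than the other sets of regions did. The median gap to the nearest other union region was 4.16 kb, against 5.91 kb for day 8 only regions. For regions called on both later days it was 4.94 kb, and for those called in all 9 lists 5.44 kb. A neighbour within 500 bases was held by 97 members (15.7%), against 13.0, 11.8 and 12.4% of these sets in that order. In 81 of these 97 cases that close neighbour was called in at least 1 day 8 list. The same held in 79 of 88 cases among day 8 only regions and in 1198 of 1433 among regions called on both later days. The nearest region was one called in all 9 lists for 159 members (25.7%), one called on both later days for 136 (21.97%), and another member for 12. Among regions called in all 9 lists the first of these shares was 26.2% and the next 18.3%. Among day 8 only regions they were 18.4% and 20.6%. In 52 cases the gap was 200 bases or less, so that a wider merge would have joined the member to a neighbour.

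Groups of members within 10 kb of each other were few, with 8 groups holding 17 members. Atp10a held the largest, with 3 members in 11.5 kb, at chr7:58685991-58686483, chr7:58695725-58696011 and chr7:58697136-58697457. Their pileups were 32, 31 and 32, then 24, 25 and 31, then 33, 32 and 40, and 3 regions with other patterns lay between them. Sfi1 had a pair in 10.3 kb beside the strongest member, with pileups of 100, 104 and 129 and of 77, 82 and 102, again at low fold enrichments of 1.78 to 2.01. Pairs also lay at Ifi209, Tspan5, Tmem168 and Aopep and at 1 place on chromosome 12 with no gene within 100 kb.

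By overlap with a gene or nearness within 100 kb, 564 members were placed at 525 protein-coding genes, 3.27% of the 16077 genes with a union region, and 55 had no gene. Day 8 only regions were at 626 genes (3.89%), and 24 genes held both kinds, 4.57% of the genes with a member and 3.83% of those with a day 8 only region. A gene with many regions has more chances to hold a member, and the median number of union regions was 7 at genes with a member, against 2 over all genes with a region. Most genes, 484, held 1 member, 37 held 2 and 4 held 3. Without day 21 list 2, day 21 list 1 or day 8 list 3 the number of genes was 1072, 1004 and 921.

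Beside Sfi1 and Atp10a, Kcnq5 and Nrxn3 held 3 members each. Kcnq5, a voltage-gated potassium channel gene, had members at 3 distant places inside the gene, with pileups of 16, 16 and 21, of 14, 15 and 16 and of 12, 15 and 18. Those of Nrxn3, beyond the one at its inner start, had 13, 15 and 21 and 12, 16 and 16. These 6 members were all weak, with a median percentile over the lists of at most 22.9. Qrfprl, Enc1, Gpr174, Myo6 and Dlgap1 held 2 each. Gpr174, on chromosome X, encodes a receptor for lysophosphatidylserine on lymphocytes, and its members 5.09 and 30.6 kb outside the gene had pileups of 32, 17 and 30 and of 15, 15 and 22. Day 21 list 2 was the lowest at the first of them, with a −log10 q of 7.71 against 22.5 and 17.4 in lists 1 and 3. Enc1, an actin-binding protein gene, had 44, 39 and 51 at 1.27 kb and 17, 16 and 17 at 32.6 kb. Myo6, a myosin gene, had 25, 23 and 31 and 13, 12 and 14, and Dlgap1, a gene of a synaptic scaffold protein, had 22, 22 and 24 and 17, 16 and 20.

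The genes with a member had other regions that were called at every stage. Over 4491 other union regions of the 525 genes, a list called on average 28.2% on day 4, 71.9% on day 8 and 76.0% on day 21. The 3881 other regions of genes with a day 8 only region had 26.6%, 74.9% and 71.9%, and the 58782 regions of all genes had 31.4%, 75.4% and 74.7%. So day 21 stood 4.08 percentage points above day 8 at the first set of genes, and 2.94 below it at the second. By list, the genes with a member had 73.1, 72.7 and 82.2% on day 21 and 69.7, 70.4 and 75.6% on day 8, and day 21 list 2 was lower than day 8 list 3, so the lists of these days overlapped. These calls come from the lists that the rule used, and the difference was not tested.

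Inhibitory receptor and exhaustion genes were one of 13 gene lists looked at, and 4 of its 28 genes held a member, or 4 of its 262 regions (1.53%). Over all features, 3.27% of genes held a member and 0.983% of union regions were members. Genes with many regions, as these lists hold, have more chances to hold one. Pdcd1 encodes PD-1, and its member chr1:94042182-94042822 lay inside the gene, 3.88 kb from an end and 10.1 kb downstream of the listed start, with pileups of 19, 20 and 20. Only the pileups were nearly equal, since the local background rose from list 1 to list 3. Fold enrichment fell over the lists, at 4.93, 4.17 and 3.68, as did −log10 q, at 7.52, 6.28 and 5.29. The scaled pileup was 1.56 times the limit of a day 8 call. Of the other 7 regions of Pdcd1, lists of day 4 called 3, 4 and 3, lists of day 8 called 5, 5 and 6 and lists of day 21 called 7, 7 and 6. Ctla4, another inhibitory receptor gene, had a member at chr1:60910868-60911105, 1.96 kb downstream of its start, with pileups of 37, 40 and 43. That was the second strongest of the members at listed genes, at a ratio of 1.67. Nt5e encodes the ectoenzyme CD73, which makes adenosine, and the member chr9:88362143-88362492 in the gene had 36, 27 and 37. Vsir, the gene of VISTA, shares its place with the cadherin gene Cdh23, and the member chr10:60398160-60398397, with pileups of 21, 14 and 23, overlaps both. Regions called on day 8 only were at 5 genes of this list and made up 1.91% of its regions.

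Memory and stemness genes had 7 members at 6 of 30 genes, 1.502% of 466 regions, against 3 day 8 only regions (0.644%). Over the whole union the shares were 0.983% for members and 1.08% for day 8 only regions, and 3.27% of all genes with a region held a member. Myb encodes a factor that maintains stem-like CD8 T cells, and its member, chr10:21223562-21224032, lay 62.6 kb outside the gene on the upstream side, with pileups of 22, 27 and 28. Bcl2, which protects memory T cells from death, held 2 members inside the gene, chr1:106577872-106578183 and chr1:106595332-106595635. Their pileups were 16, 21 and 29 and 19, 14 and 19. Day 21 list 3 was highest at the first of them, while lists 1 and 3 were equal at the second. Dapl1, a gene whose RNA marks memory-like CD8 T cells, had 33, 28 and 32 at chr2:59467989-59468285, 16.4 kb upstream. Cd44 encodes the activation marker on which the cells were sorted, and its member in the gene had 25, 22 and 27. Ikzf1, the gene of Ikaros, had 17, 21 and 32 at chr11:11703752-11704133. Foxo1, which encodes a forkhead factor needed for T cell memory, had the weakest of these, with 22, 18 and 20 at chr3:52299439-52299744, where the scaled pileup was 1.14 times the day 8 limit. Tcf7, the gene of TCF-1, and the other 23 genes of the list held none.

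Genes of early activation and receptor signalling had 6 members at 6 of 34 genes with a region, 1.66% of 362 regions, against 2 day 8 only regions (0.552%). The union had 0.983% and 1.08%, and 3.27% of all genes held a member. Cd69 encodes a receptor of early activation and tissue retention, and the member chr6:129282300-129282690, 6.93 kb outside the gene, had pileups of 29, 34 and 39. Cd8b1, the gene of the CD8 β chain, had 36, 24 and 34 inside the gene. Nfkb1, an NF-κB subunit gene, had 10, 14 and 17 at 6.50 kb. Cd5, a damper of receptor signals, had 25, 26 and 35 at 9.74 kb, and Jund, an AP-1 factor gene, had 43, 37 and 49 at 2.04 kb upstream. High pileups did not mean strong peaks there, since fold enrichments were 2.53 to 2.82 at Cd5 and 2.29 to 2.59 at Jund.

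Cytokine and TGF-β signalling genes had 5 members at 4 of 31 genes, 1.54% of 324 regions, against 4 day 8 only regions (1.23%), beside 0.983% and 1.08% over the union and 3.27% of all genes with a member. Il21r encodes the receptor chain for interleukin-21, and had the strongest member of all listed genes, chr7:125636417-125636694, 2.02 kb outside the gene, with pileups of 48, 42 and 55 and a ratio to the day 8 limit of 1.69. Jak1, the kinase of many cytokine receptors, had a member in the gene with 23, 23 and 21 and another 63.7 kb outside it with 14, 13 and 20. Tgfbr2, a TGF-β receptor gene, had 20, 16 and 19 at a place 95.7 kb away on the upstream side. Smad7, which inhibits TGF-β signals, had 16, 19 and 16 at 36.1 kb. Assignments of distant members rest on the 100 kb limit, and at 50 kb Myb and Tgfbr2 would have no member.

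**Figure D4:**
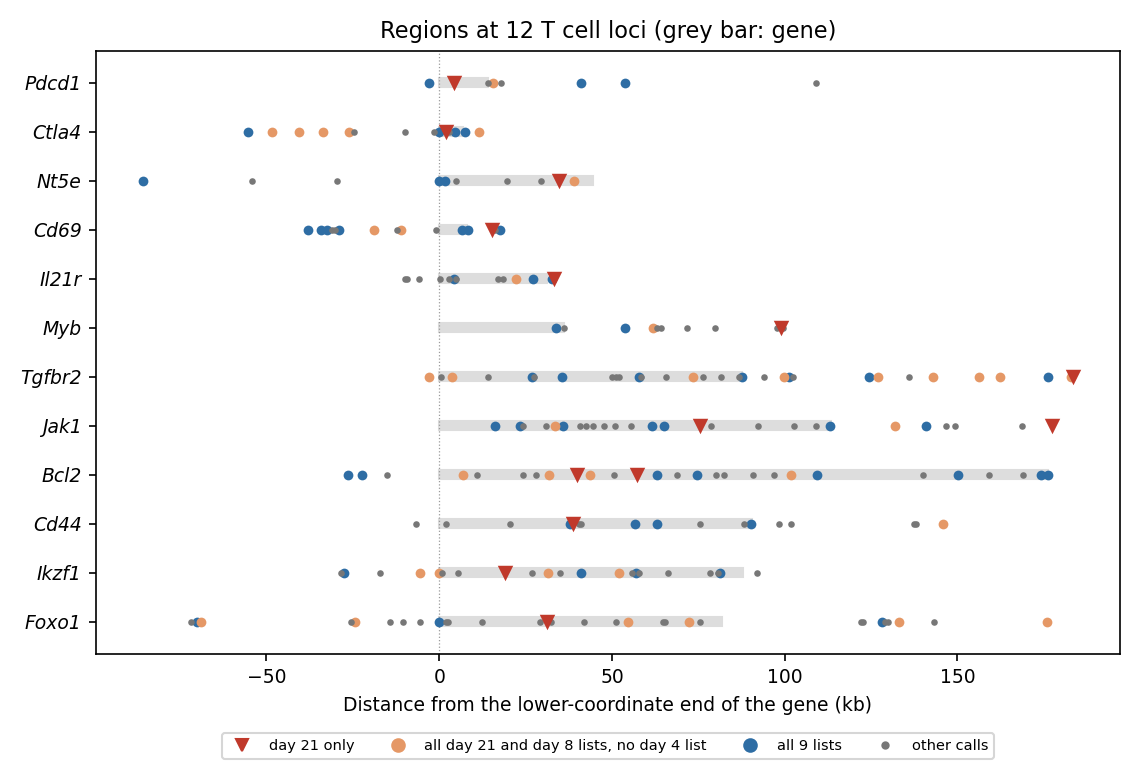
Union regions at 12 T cell genes with a member, each as a point at its distance in kb from the lower-coordinate end of the gene (grey bar: the gene), coloured by the lists that called it. Red triangles are regions called on day 21 only; each of Bcl2 and Jak1 has 2 of them and each other gene 1.

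Other lists held no member: effector genes (27 genes, 190 regions), tissue residency and homing genes (24 genes, 149 regions), genes of other lymphoid fates (24 genes, 116 regions), B cell genes, stromal and endothelial genes, cell division genes and constitutively expressed genes. The last 4 of these lists are smaller, with 36, 44, 43 and 83 regions. Members were 0.983% of the whole union, so in lists as short as these an empty list is no result. Lists for other cells held 3: Spi1, the gene of the myeloid factor PU.1, had 31, 20 and 31 at 1.03 kb, Siglech, a receptor gene of plasmacytoid dendritic cells, had 16, 15 and 16 at 5.08 kb, and Mitf, the melanocyte factor, had 11, 15 and 15 in the gene. They made up 2 of 61 regions (3.28%) of the myeloid and dendritic list and 1 of 14 (7.14%) of the melanocyte list. Both shares were above those of the T cell lists and of the union. Each of these 2 lists also had as many day 8 only regions as members, 2 and 1. As with the T cell lists, counts this small are a description only. In all, 23 of 279 listed genes with a region held a member (8.24%) and 24 held a day 8 only region. The share of all genes was 3.27%, but listed genes had a median of 6 union regions, against 2 for all genes.

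The members were spread over the chromosomes unlike the day 8 only regions. Chromosome X held 26 members, 2.09% of its 1247 union regions, against 5 day 8 only regions (0.401%). Chromosome 18 held 25 (1.34% of its union regions) against 8 (0.427%), and chromosome 13 held 36 (1.28%) against 19 (0.674%). Chromosome 11 held 28 (0.617%) against 72 (1.59%), and chromosome 19 held 14 (0.747%) against 29 (1.55%). Over the whole union the shares were 0.983% for members and 1.08% for day 8 only regions. Some X-linked genes with members act in lymphocytes, named here after their values were seen: Msn, a linker of membrane and cytoskeleton, had pileups of 15, 15 and 15, Tsc22d3, a glucocorticoid-induced gene, had 16, 15 and 22, and Btk, a kinase gene best known in B cells, had 17, 16 and 17.

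The signal of the libraries was tilted between chromosomes in the same direction. At regions with a call in every list, the median pileup on chromosome 11, relative to that of all these regions, was 0.920 on day 21 and 1.03 on day 8, and on chromosome 18 it was 1.09 and 1.02. On chromosome X it was 0.881 and 0.863. Across the 19 autosomes, the share of day 21 only among regions called on day 21 only or day 8 only went with the ratio of these relative pileups, with a Pearson r of 0.873 and a Spearman rho of 0.825, and with X included r was 0.759 and rho 0.776. The same share went against the percent of a chromosome's union regions that lie near gene ends, with r of −0.760 and rho of −0.740 over the autosomes and −0.231 and −0.492 with X. Both quantities come from the same lists, chromosomes are not replicates, and the part of the tilt in the choice of members was not tested. Chromosome X had the highest share, 83.9%, at a ratio of 1.02.

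**Figure D5:**
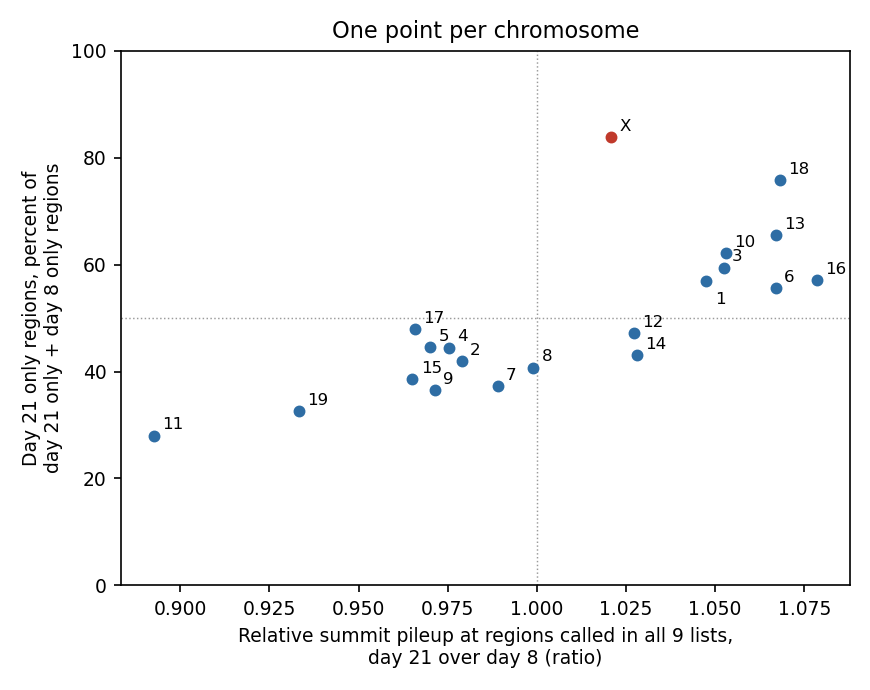
Each point is a chromosome: the horizontal axis gives the relative summit pileup at regions called in all 9 lists as a ratio of day 21 over day 8, and the vertical axis the percent of day 21 only among the regions called on day 21 only or on day 8 only. Chromosome 11 lies lowest, at 28.0%, and chromosome X highest, at 83.9%.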

How the data were processed

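The deposited values were 9 narrowPeak lists of ATAC-seq libraries, so peaks were called per library. The build was mm10 and the tools named were MACS2, deepTools 2.0, Picard and BWA 0.7.15, per the submitters' processing notes. Not given in the sources used here are what each did, how reads were filtered, how those with more than one match were handled, whether reads were shifted for Tn5, and how MACS2 was set. For each peak the deposited lists hold the authors' score, its fold over the local background at the summit, and −log10 of its p-value and q-value, which served here to rank, filter and describe peaks inside 1 list.

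The analysis used 353295 peaks, those on chromosomes 1 to 19 and X, and left out 212 on other chromosomes. Union regions were formed where peaks shared at least 1 base. Coordinates are 1-based on mm10. Together, a peak's fold and −log10 p fix a whole-number summit pileup under the Poisson formula of MACS2, and this gave a whole pileup for at least 99.995% of the peaks of a list (tolerance 0.001 in −log10 p). The smallest background of a list stood for its depth. A region belonged to a protein-coding gene it overlapped, otherwise to the nearest within 100 kb, among 21631 genes in RefSeq's GRCm38.p6 table, which gives gene ends but no strand. Start windows on chromosome 18 were not used. Of 291 gene symbols in 13 lists, 290 matched.

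The members and the gene lists were chosen with earlier results of these data known. The text names the 20 members with the highest lowest-of-3 −log10 q, the 10 genes holding most members, each listed gene with a member and the 6 strongest members at a start window; other names were chosen after their values were seen and are so marked or come from a count. A few items that this rule names are not reported here. No test over samples was run, because the rule uses all 9 lists and same-day lists were closer than counting noise. The procedure was tested on simulated data. Alternatives were a stricter q, other merging and overlap, equal list lengths, other distances and leaving out each list. The software was matplotlib 3.10.9, scipy 1.17.1, pandas 2.3.3 and numpy 2.4.6 under Python 3.11.15.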

Additional observations from a re-analysis of the deposited data

How the results depend on the processing

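The number of regions called on day 21 only depends on where a list ends. When each list was cut to its strongest 19499 peaks, 170 regions had the pattern, at 148 genes and 4 listed genes, and 0 of the 619 were among them, since members are weak peaks that drop out of shorter lists. With the strongest 46492 peaks of each list the number was 643, with 477 of the 619 among them. A q of 0.01 gave 626 (617 of the 619 kept) and merging peaks within 200 bases gave 584 (576 kept). The share within 1 kb of a gene end ran from 4.79 to 7.65% over these settings, and within 2 kb it was 11.95%, against 20.4% for day 8 only regions. For day 8 only regions the share within 1 kb ran from 13.1 to 23.0%.

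Leaving out 1 list at a time gave 621 to 1316 regions, a share of 5.92 to 7.45% near gene ends, 526 to 1072 genes and 23 to 38 listed genes. The number moved over 1.5 times without day 21 list 2 (1316), day 21 list 1 (1230) and day 8 list 3 (1115), as fewer lists must meet the rule. The overlap of 50% changed nothing, because each peak lies wholly inside its union region, and with genes within 50 kb there were 486 genes and 20 listed genes. No paired analysis was possible because no result comes from a test over samples. No read totals were at hand, so depth is known only through the smallest background of each list.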

Other observations

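Gene families, defined by symbol after the regions were known, give another view of where the regions called on day 21 only lie, beside the 0.983% of the union that they make up. Vomeronasal receptor genes, which act in pheromone sensing, held 3 among 73 union regions (4.11%), at Vmn2r26, Vmn2r92 and Vmn2r98, and no day 8 only region. These genes have similar copies, and the handling of reads that match more than one of them is not stated. Genes with symbols of potassium, sodium and calcium channels or their partners held 7 among 477 (1.47%), against 6 day 8 only regions (1.26%). Of the 7, 3 were at Kcnq5 and the others at Kcnip2, Kcnj15, Kcnk12 and Kcnk5. Collagen genes held 2 among 112 (1.79%), at Col12a1 and Col14a1, against 1.

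Shares in other families lay on both sides of that of the union. Chemokines and their receptors held 0 among 174 regions, and also 0 day 8 only regions. Interleukins and their receptors held 2 among 292 (0.685%), at Il1rap and Il21r, against 6 (2.05%). Integrins held 2 among 173 (1.16%), both at Itgav, against 4 (2.31%). Protein tyrosine and dual-specificity phosphatases held 4 among 358 (1.12%), at Ptpre, Ptprj, Ptprk and Ptprn2, against 6 (1.68%). Zinc-finger genes held 8 among 1203 (0.665%) against 13 (1.08%), and solute carriers 8 among 1272 (0.629%) against 14 (1.10%), including the glucose transporter gene Slc2a1. Olfactory receptor and histone genes held 0 among 118 and 0 among 101. With counts this small these shares are descriptions of single families, and no difference between families was tested.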
